A study of Mus musculus with 9 samples.

Results

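The NR4A nuclear receptors Nr4a1, Nr4a2 and Nr4a3 and the EGR zinc finger factors Egr1, Egr2 and Egr3 are immediate-early transcription factors that antigen induces in T cells. The 6 genes were listed by symbol, with earlier results of these data known, among the 23366 genes of a table of expression in tumour-infiltrating CD8+ T cells. Levels are in FPKM, fragments scaled to transcript length and library size, and 5 of the 6 averaged 1 FPKM or more, as testing required, among 10374 such genes in all. RNA was sequenced in bulk from CD8+ T cells of B16F10 tumours, a transplantable mouse melanoma, grown in C57BL/6 mice. The IL27ra KO group, whose mice lack the receptor chain that binds interleukin 27, had 4 libraries, and the WT group had 5. The comparison asks which tumour T cell genes depend on interleukin 27, and all animals of both groups bore the tumour. The labels do not say that the libraries came from separate animals, so p-values measure only library-to-library spread, part of which may be technical.

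Immediate-early genes are transcribed within minutes of a signal and need no new protein. In T cells, calcium entering after antigen contact activates calcineurin and NFAT, which help to induce the NR4A genes and Egr2 and Egr3, and ERK signalling through SRF and its partners drives Egr1. NR4A factors bind DNA without a known natural ligand and are known for promoting dysfunction of T cells in tumours, while Egr2 and Egr3 are linked to T cell tolerance, and macrophages and other cells induce many of the same genes.

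The promoters of the 3 NR4A genes are shown because the family is known for cyclic AMP response elements, yet its members differed below. The sequences are from RefSeq, build GRCm38.p6, on the gene's own strand from 5′ to 3′, and capitals mark TGACG, the core motif of sites bound by CREB and ATF factors, read on either strand (CGTCA on the other). The Nr4a1 window is chr15:101266596-101266845 on the plus strand, the Nr4a2 window is chr2:57124004-57124253 on the minus strand, and the stretch of the Nr4a3 window before an annotated exon is chr4:48045055-48045152 on the plus strand.
Nr4a1: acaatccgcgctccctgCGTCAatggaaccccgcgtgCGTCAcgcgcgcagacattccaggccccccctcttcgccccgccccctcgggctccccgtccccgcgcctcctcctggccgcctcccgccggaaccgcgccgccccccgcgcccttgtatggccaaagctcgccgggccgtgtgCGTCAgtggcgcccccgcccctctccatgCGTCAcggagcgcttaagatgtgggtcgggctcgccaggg
Nr4a2: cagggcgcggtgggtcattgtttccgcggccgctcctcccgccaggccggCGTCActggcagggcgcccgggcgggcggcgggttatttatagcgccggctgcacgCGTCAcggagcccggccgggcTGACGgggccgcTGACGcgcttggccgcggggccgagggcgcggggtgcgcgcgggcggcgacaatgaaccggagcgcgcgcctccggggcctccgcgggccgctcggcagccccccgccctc
Nr4a3: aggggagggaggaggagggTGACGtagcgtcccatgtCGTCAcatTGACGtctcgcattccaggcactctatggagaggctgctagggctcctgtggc
Each of the 3 windows of 250 bases held 4 TGACG motifs, of which 3 lie in the Nr4a3 stretch shown. Of 32817 mouse windows of that length, 17.7% held 1 or more and 0.137% held 4 or more. None of the 3 windows held the full element TGACGTCA (1.55% of all windows), the EGR site GCGTGGGCG (0.536%) or the NR4A site AAAGGTCA (1.34%), and TATAAA (12.4%) was found in the Nr4a2 window alone, all read on both strands. A match describes the letters and is not a binding site.

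The composition of the libraries differed between the groups, which bears on each result below. The defining T cell genes Cd3e and Cd8a were present in every library and Cd4 stayed at 0.45 FPKM or less, but all 21 tested macrophage markers rose in IL27ra KO libraries, where their summed level was 610.6 to 2063.5 FPKM, against 95.4 to 483.5 FPKM in WT libraries. With 1 library left out, 16 to 21 of them passed. None of the 22 listed macrophage markers was at 0 in an IL27ra KO library, while Cd14, Ms4a7, Trem2, Fcgr1, Cd163, Fcgr3 and Clec4n were each at 0 in at least 1 WT library, and the macrophage receptor gene Csf1r was at 10.99 to 49.03 FPKM there, against 0.22 to 4.01 FPKM in WT. Of 11 dendritic cell genes in the table only 6 were high enough to test, and 4 rose (Itgax, Cd209a, H2-Ab1 and Cd74). Of 9 neutrophil genes 4 were tested and 2 rose (Il1b and Clec4d), with Mpo and Elane at 0 in all libraries. Whether these cell types rose apart from macrophages was not tested. Of the other markers, 0 of 9 melanoma, 0 of 3 B, NK and CD4 T cell and 0 of 1 stromal genes passed. The dendritic count was 1 without IL27ra KO replicate 1, 2 or 3. The neutrophil count was 0 without IL27ra KO replicate 3, 3 without the library labelled WT replicate 2, and 1 without IL27ra KO replicate 2 or WT replicate 1, 3, 4 or 5. Of 15 CD8 T cell identity genes 2 fell, Cd3e (-1.20) and Cd8a (-1.15), by limma. The count was 0 without IL27ra KO replicate 1, 2 or 3 or WT replicate 3 or 5, 1 without WT replicate 1, 2 or 4, and 9 without IL27ra KO replicate 4. These 15 CD8 T cell identity genes had an average log2 level of 5.52 ± 0.56 in IL27ra KO and 6.22 ± 0.25 in WT (SD, n = 4 and 5, two-sided exact permutation p = 0.0794, the smallest possible being 0.0159). IL27ra KO replicate 4 stood nearest to WT, with a T cell level of 6.31 and the lowest macrophage level of its group (3.79). Il27ra itself was at 4.09, 6.50, 5.62 and 7.80 FPKM in IL27ra KO libraries and at 25.74, 5.14, 15.24, 14.43 and 15.79 FPKM in WT libraries, and the difference did not pass (limma adjusted p = 0.0996). The library labelled WT replicate 2 therefore lay inside the IL27ra KO range for the targeted gene, and results that rest on it are given without it too. The spacing of low values implied depths of about 1725000 to 4084000 fragments per library.

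Among the NR4A receptors, Nr4a2 was lower in every IL27ra KO library, while Nr4a1, the most abundant of the 6 genes, and Nr4a3 had groups that overlapped. Nr4a2, also called Nurr1, had 6.29, 8.32, 9.55 and 10.35 FPKM in IL27ra KO libraries, against 21.62, 33.60, 18.90, 12.77 and 28.83 FPKM in WT libraries. The highest IL27ra KO library stayed below the lowest WT library, so the groups did not overlap, as was so for 2.47% of all genes tested in that direction and 4.26% in the other. It averaged 8.63 ± 1.77 FPKM in IL27ra KO and 23.1 ± 8.21 FPKM in WT (SD, n = 4 and 5), and fell by 1.27 on the log2(FPKM + 1) scale (SE 0.26, 95% interval -1.84 to -0.71, limma adjusted p = 0.0123 over all genes). In the library labelled WT replicate 2 the gene was at its highest, and without that library the change was -1.13 (limma adjusted p = 0.0160).

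Nr4a2 was the 1 of the 6 genes that passed in the limma fit, with 0 higher and 1 lower. Over all genes tested 3.13% were called higher and 1.11% lower, 4.24% together. By limma without IL27ra KO replicate 1 the Nr4a2 change of -1.15 no longer passed (adjusted p = 0.0584). IL27ra KO replicate 4 alone, the library nearest to WT in composition, differed from WT by -1.02 (limma adjusted p = 0.999, with that lone library assumed to vary like WT). Its own Nr4a2 value of 10.35 FPKM was the highest of its group and below all WT libraries. In bulk RNA, fewer cells of a type and less RNA per cell cannot be told apart, and the part of the lower T cell level in the fall of Nr4a2 is taken up below.

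Nr4a1, also called Nur77 and used as a reporter of T cell receptor signalling, had 83.02, 95.62, 113.42 and 108.68 FPKM in IL27ra KO libraries, against 55.86, 54.60, 112.48, 75.23 and 58.38 FPKM in WT libraries. All 4 IL27ra KO libraries lay above the WT mean, but WT replicate 3 reached into their range. The averages were 100.2 ± 13.7 FPKM in IL27ra KO and 71.3 ± 24.5 FPKM in WT (SD, n = 4 and 5), a difference of 0.53 on the log2 scale (SE 0.24) that did not pass (limma adjusted p = 0.312, unadjusted 0.0442).

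Nr4a3, the receptor also called NOR1, had 7.70, 7.61, 9.60 and 14.05 FPKM in IL27ra KO libraries, against 10.73, 11.22, 16.36, 12.44 and 9.40 FPKM in WT libraries. The groups overlapped, with 3 of 4 IL27ra KO libraries below the WT mean and replicate 4 above it. The difference of -0.30 (SE 0.22, limma adjusted p = 0.599) did not pass, and its sign turned when libraries were rescaled to the same total (0.01) or to the T cell identity genes (0.35).

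**Figure D1:**
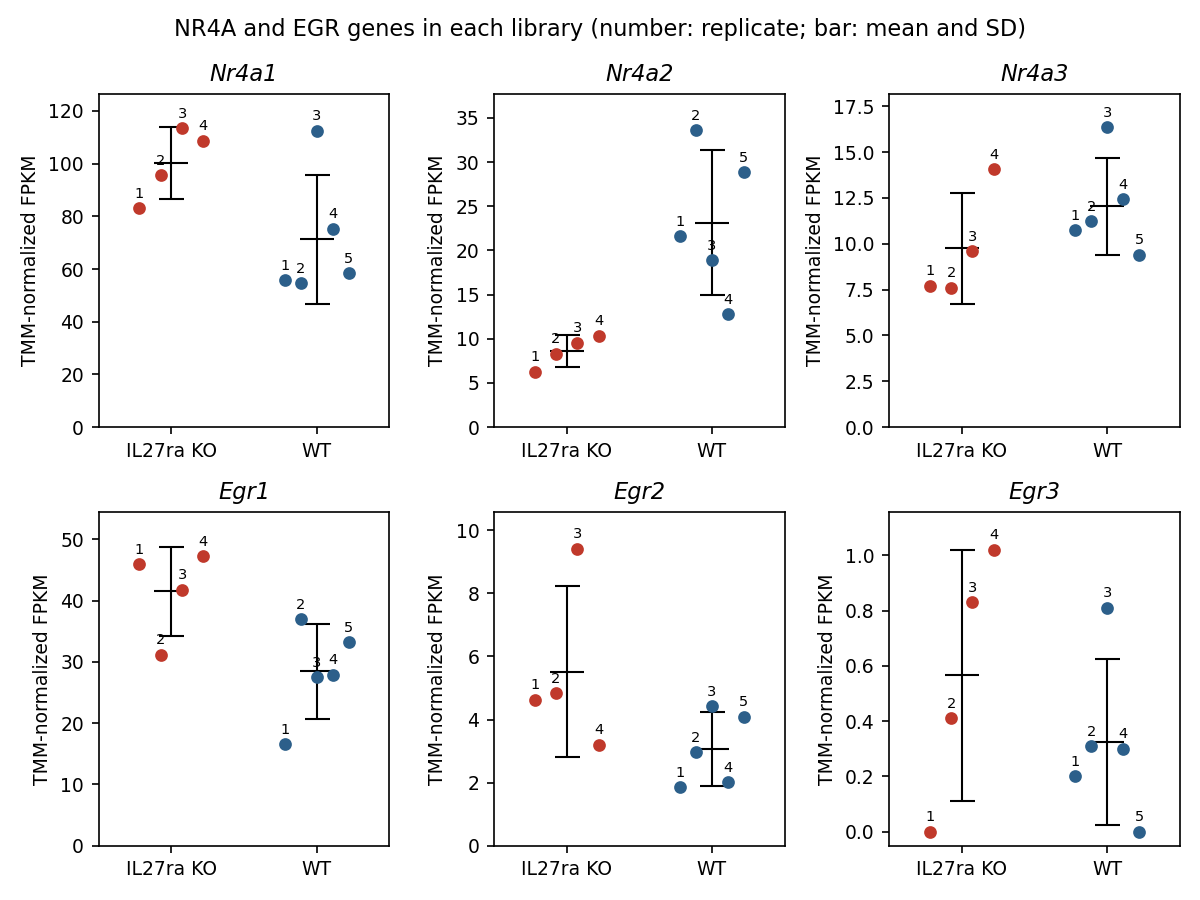
TMM-normalized FPKM of the 6 genes in each library (points, numbered by replicate), IL27ra KO to the left of WT, with the group mean and SD as bars, on linear axes of their own. Nr4a2 alone has groups that do not overlap, with 6.29 to 10.35 FPKM in IL27ra KO and 12.77 to 33.60 FPKM in WT.

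The EGR genes ran the other way from Nr4a2 in their averages, but none passed. Egr1, an early growth response factor induced through ERK and SRF, had 45.93, 31.15, 41.74 and 47.22 FPKM in IL27ra KO libraries, against 16.54, 36.98, 27.50, 27.89 and 33.24 FPKM in WT libraries. Of the IL27ra KO libraries, 3 exceeded all of WT, and replicate 2 fell between WT values. Egr1 averaged 41.5 ± 7.29 FPKM in IL27ra KO and 28.4 ± 7.73 FPKM in WT (SD, n = 4 and 5), a difference of 0.56 (SE 0.24, limma adjusted p = 0.276, unadjusted 0.0352).

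Egr2, a regulator of T cell tolerance, had 4.63, 4.84, 9.42 and 3.20 FPKM in IL27ra KO libraries, against 1.85, 2.97, 4.43, 2.01 and 4.09 FPKM in WT libraries. Replicate 3 of IL27ra KO was the highest of the 9 libraries, and replicate 4, nearest to WT in composition, lay within the WT range. The difference of 0.65 (SE 0.28, limma adjusted p = 0.289) was 0.39 without IL27ra KO replicate 3.

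Egr3, a partner of Egr2 in tolerance, had 0, 0.41, 0.83 and 1.02 FPKM in IL27ra KO libraries, against 0.20, 0.31, 0.81, 0.30 and 0 FPKM in WT libraries. It was listed at 0 in 1 library of each group and was not tested, since its mean was under 1 FPKM. If all of its RNA were its longest transcript, the highest value would rest on 13.8 fragments, so a difference between the groups was not detectable at this depth.

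The order of the levels per length differed between the groups in 1 place. In IL27ra KO the means ran from Nr4a1 (100.2 FPKM) through Egr1 (41.5), Nr4a3 (9.74), Nr4a2 (8.63) and Egr2 (5.52) to Egr3 (0.565 FPKM). In WT they ran from Nr4a1 (71.3 FPKM) through Egr1 (28.4), Nr4a2 (23.1), Nr4a3 (12.0) and Egr2 (3.07) to Egr3 (0.324 FPKM). Nr4a3 and Nr4a2 changed places: Nr4a2 was below Nr4a3 in 3 of 4 IL27ra KO libraries and above it in 5 of 5 WT libraries, and the ranges of these neighbours overlapped in both groups. Those of Nr4a2 and Egr2 overlapped in IL27ra KO and those of Egr1 and Nr4a2 in WT, while the other neighbours did not overlap.

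The make-up of NR4A RNA was worked out within each library, where scaling between libraries cancels. This measure was chosen after the values were seen. A difference in cell make-up does not cancel in such a share. Macrophage levels were 3.79 to 5.35 in IL27ra KO and 1.27 to 2.85 in WT, and their part in the shares was not tested. Nr4a2 made up 6.48%, 7.46%, 7.20% and 7.78% of the summed NR4A FPKM in IL27ra KO libraries, against 24.5%, 33.8%, 12.8%, 12.7% and 29.8% in WT libraries. As for the Nr4a2 level itself, the groups did not overlap. The IL27ra KO libraries, replicate 4 included, lay close together at 7.23% ± 0.55, against 22.7% ± 9.69 in WT (SD, n = 4 and 5). Nr4a1 made up 84.6% ± 1.98 of the sum in IL27ra KO and 65.9% ± 9.26 in WT, and Nr4a3 made up 8.14% ± 1.68 in IL27ra KO and 11.3% ± 1.05 in WT. The sums overlapped between the groups, 118.6 ± 17.5 FPKM in IL27ra KO and 106.5 ± 23.6 FPKM in WT. For each unit of Nr4a2 FPKM there were 10.5 to 13.2 units of Nr4a1 in IL27ra KO libraries and 1.62 to 5.95 in WT libraries.

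**Figure D2:**
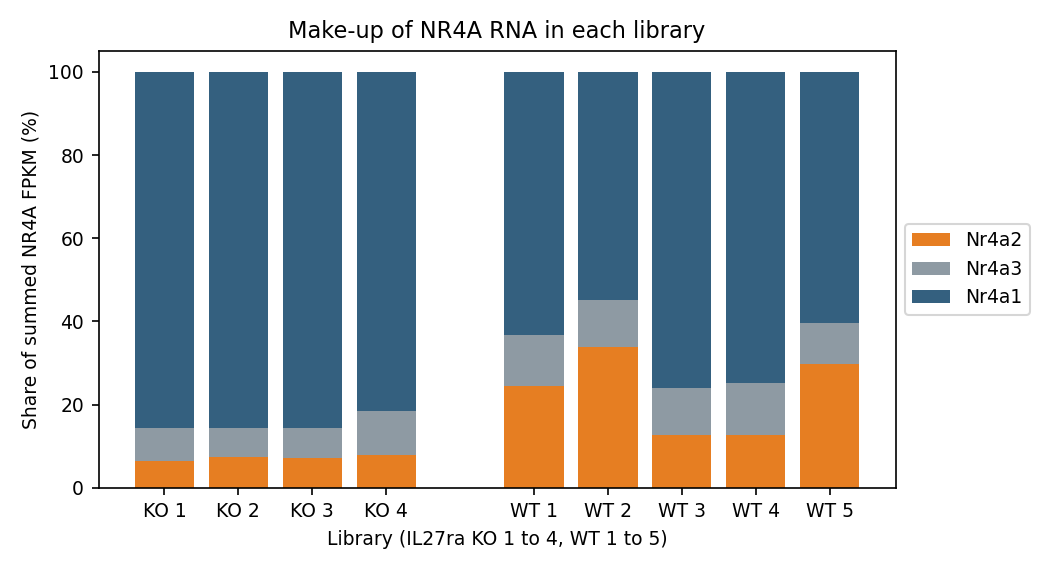
Share (%) of the summed FPKM of Nr4a1, Nr4a2 and Nr4a3 in each library, IL27ra KO replicates 1 to 4 on the left and WT replicates 1 to 5 on the right. Nr4a2 makes up 6.48% to 7.78% of the bar in IL27ra KO and 12.7% to 33.8% in WT.

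Whether a pair of genes changed by different amounts was tested within libraries, on the difference of their log2(FPKM + 1), for all 15 pairs. By the two-sided exact permutation test, 6 pairs passed after adjustment over the 15, each at adjusted p = 0.0397 with groups that did not overlap. Nr4a1 exceeded Nr4a2 by 3.40 ± 0.11 log2 units in IL27ra KO and by 1.60 ± 0.85 in WT (SD, n = 4 and 5), so their changes differed by 1.81. Nr4a1 and Nr4a3 differed in change by 0.83, Nr4a2 and Egr1 by -1.83, and Nr4a2 and Egr2 by -1.92. The other 2 pairs set Egr3, near 0 and not tested alone, against Nr4a2 (-1.49) and Nr4a3 (-0.51). Egr3 itself differed by 0.22, against -1.27 for Nr4a2 and -0.30 for Nr4a3, so the Nr4a3 pair rests on both genes. All 6 pairs were at the smallest possible exact permutation p of 0.0159, so each pass depends on how many pairs reach it. Nr4a2 against Nr4a3, the relative nearest to it in level, gave -0.98 and did not pass (exact permutation, adjusted p = 0.0595). With a pseudocount of 0.1, or with any 1 library left out, 0 pairs passed; fewer libraries have fewer splits and a higher smallest p.

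Set against the T cell identity level of its own library, none of the 6 genes passed. Nr4a2 lay at -2.15, -2.26, -1.89 and -2.81 log2 units from the T cell level in IL27ra KO libraries, against -1.58, -1.51, -1.78, -2.21 and -1.41 in WT libraries. The groups overlapped, since WT replicate 4 fell among the IL27ra KO libraries. The difference of -0.58 compares with -1.27 before this step (exact permutation p = 0.0476, adjusted over 6 genes 0.0571). Egr1 stood 1.25 higher, with no overlap, and Nr4a1 1.23 and Egr2 1.34 higher (adjusted p = 0.0571 for each by the exact permutation test). Nr4a3 stood 0.40 higher (exact permutation, adjusted p = 0.190). Before this step Egr1 was at 0.56 with overlap, Nr4a1 at 0.53, Egr2 at 0.65 and Nr4a3 at -0.30. Each relative value includes the T cell level difference (-0.69) with its sign turned. The share of all genes without overlap on this scale was not worked out.

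The median change over all genes was 0.02 as deposited, 0.61 with libraries rescaled to T cell identity and 0.29 at the same total. On the first scale Nr4a1 (1.23, limma adjusted p = 0.0225), Egr1 (1.25, 0.0163) and Egr2 (1.24, 0.0365) passed as higher, and Nr4a2 did not pass (-0.61, 0.137). There 11.4% of all genes were called higher and 0.464% lower, 11.9% together. On the total scale 0 of the 5 genes passed, where 5.2% of all genes were called higher and 0.614% lower, 5.81% together, and Nr4a2 was at -0.97 (limma adjusted p = 0.0657). With the macrophage level as a covariate, whose values did not overlap between the groups, Nr4a2 was at -1.60 (limma adjusted p = 0.405), and Egr1 (-0.11) and Egr2 (-0.23) turned below 0.

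**Figure D3:**
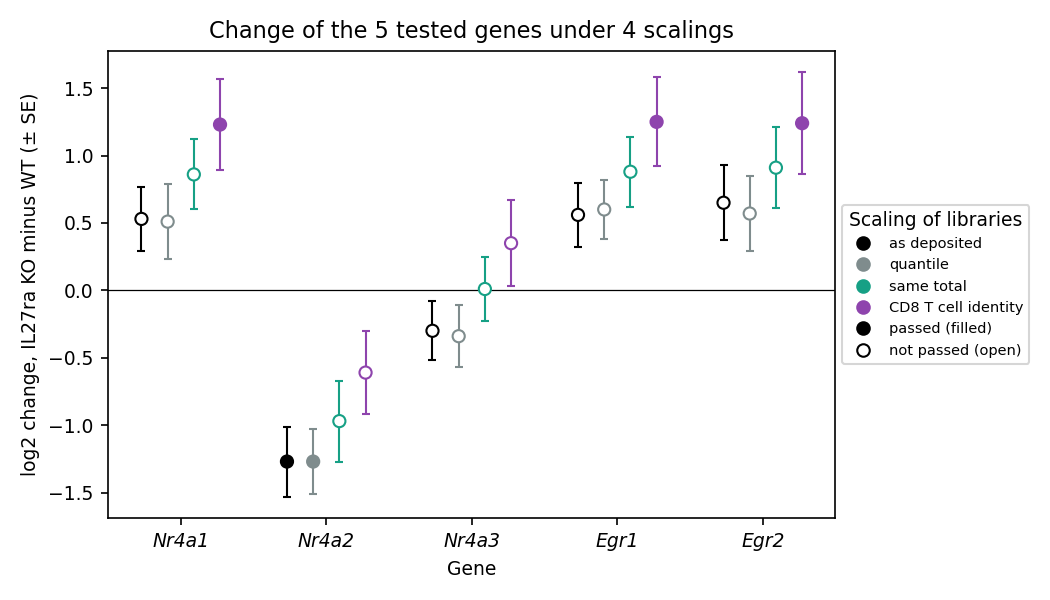
Change of the 5 tested genes (log2(FPKM + 1), IL27ra KO minus WT, ± SE) with libraries as deposited, after quantile normalization, at the same total and at the same CD8 T cell identity level. Filled points passed a limma adjusted p of 0.05; Nr4a2 is below 0 on all 4 scales and passes on the first 2, and Nr4a3 changes sign.

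Upstream signalling genes were set beside all genes tested, of which 3.13% were called higher and 1.11% lower. Of 13 tested genes of calcium, calcineurin and NFAT signalling, 0 rose and 1 fell. It was Nfatc1, the NFAT factor induced by its own pathway, at 10.59, 9.44, 10.95 and 17.66 FPKM in IL27ra KO libraries, against 18.33, 20.62, 29.97, 23.91 and 26.70 FPKM in WT libraries. The groups did not overlap, but IL27ra KO replicate 4 came close to WT (-0.94, limma adjusted p = 0.0266), and the call was lost without any of 5 libraries, IL27ra KO replicates 1, 2 and 3 and WT replicates 3 and 5, at up to 0.116. Nfatc1 was at -0.63 at the same total (limma adjusted p = 0.172) and at -0.27 with libraries rescaled to T cell identity (0.457), and did not pass with the replicate number as a block either (0.0983). The median change of the list was 0.07, against 0.02 over all genes. Of 11 ERK and SRF genes none passed (median 0.10), with Elk3, an SRF partner, at -0.49 and Map2k1, the kinase that activates ERK, at 0.49 the farthest from 0. Nab1 (-0.15) and Nab2 (0.00), co-repressors that bind EGR proteins, did not pass either.

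Of 33 other immediate-early genes tested, 5 rose and 0 fell, with a median change of 0.37 against 0.02 over all genes, of which 3.13% were called higher. The count depended on the scale, with 8 higher at the same total and 18 higher with libraries rescaled to T cell identity, where 5.2% and 11.4% of all genes were called higher. It was 10 with library weights and 2 with the replicate block. Zfp36, which encodes an RNA decay factor, had 64.34 to 86.98 FPKM in IL27ra KO libraries, against 26.80 to 37.43 FPKM in WT libraries, with no overlap. It rose by 1.15 (SE 0.19, limma adjusted p = 0.00314) and passed with each library left out in turn. Fos, the AP-1 subunit, rose to 177.6 ± 34.2 FPKM in IL27ra KO, against 80.5 ± 16.6 FPKM in WT (SD, n = 4 and 5; 1.14, limma adjusted p = 0.0110), and Atf3, a stress-induced factor, rose by 1.81 (0.0117 by limma).

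Fosb (0.75) and Klf4 (0.94), a zinc finger factor, also rose, and the other 28 did not pass, among them Jun at 0.54, Myc at -0.48 and Irf4 at 0.00. Fos and Atf3 did not pass without IL27ra KO replicate 1 or 3, Fosb without any of 5 libraries and Klf4 without any of 7. With libraries left out in turn, 1 to 9 of the 33 passed, the count being 1 without IL27ra KO replicate 1 or 3, 3 without IL27ra KO replicate 2 or WT replicate 3 or 5, and 9 without the library labelled WT replicate 2. Atf3 was at 11.51 FPKM in IL27ra KO replicate 4, below the 13.37 FPKM of the library labelled WT replicate 2. The macrophage markers rose too. IL27ra KO replicate 4 alone, with the lowest macrophage level of its group, differed from WT by 1.06 for Zfp36 and 0.75 for Fosb. For Fos it differed by 0.71, for Atf3 by 0.68 and for Klf4 by 0.53. With the macrophage level as a covariate 0 of the 33 passed (median 0.46). In that fit only 4 of all 10374 genes passed. The covariate did not overlap between the groups, so the fit cannot tell group from macrophage level. Of 10 heat shock genes, which respond to handling, none passed as deposited (median 0.05). With libraries rescaled to T cell identity 2 of the 10 passed as higher, where 11.4% of all genes did. Whether handling played a part in the rises was not tested.

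Genes that the literature links to the NR4A factors and to Egr2 and Egr3 were already known to include strong falls in these data, so their counts are no independent evidence of direction. Of 11 tested NR4A-linked genes 10 fell, with a median of -1.78, where 1.11% of all genes were called lower. Pdcd1, which encodes the checkpoint receptor PD-1, was at 3.22, 7.43, 10.39 and 12.23 FPKM in IL27ra KO libraries, against 67.17, 157.21, 71.56, 49.69 and 128.94 FPKM in WT libraries. Every IL27ra KO library lay far below every WT library (-3.36, limma adjusted p = 0.000480). Tnfrsf9, the co-stimulatory receptor 4-1BB, fell by 2.87 and Havcr2, the checkpoint receptor TIM-3, fell by 2.46. The exhaustion factor gene Tox fell by 2.13, and Il21r, a cytokine receptor gene, was at -0.06 and did not pass. The T cell level was lower on average in IL27ra KO, but replicate 4 was at 6.31, against a WT mean of 6.22. That library alone differed from WT by -2.73 for Pdcd1, -2.83 for Tnfrsf9, -2.03 for Havcr2 and -1.88 for Tox. Whether T cell content had a part in these falls was not tested. With libraries rescaled to T cell identity 6 of 10 tested NR4A-linked genes passed as lower, where 0.464% of all genes did.

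Of 18 EGR-linked genes 6 fell and 0 rose, with a median of -0.06, where 1.11% of all genes were called lower and 3.13% higher. With libraries rescaled to T cell identity 3 were lower and 2 higher (median 0.52), and at the same total 4 were lower and 2 higher. Those scales called 0.464% and 0.614% of all genes lower and 11.4% and 5.2% higher. The count of falls was 4 without IL27ra KO replicate 1 or 2, 3 without IL27ra KO replicate 3, and 3 with the replicate block. Lag3, a checkpoint receptor gene, fell by 3.52, Nrn1, which encodes neuritin, fell by 2.80, and Cblb, a ubiquitin ligase that restrains T cell receptor signalling, fell by 1.25. Tnfrsf9 stands in both lists. Cblb did not pass without IL27ra KO replicate 1, 2 or 3. The diacylglycerol kinase genes Dgka (0.16) and Dgkz (-0.30) and the ligase gene Itch (0.44), also known from T cell tolerance, did not pass.

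**Figure D4:**
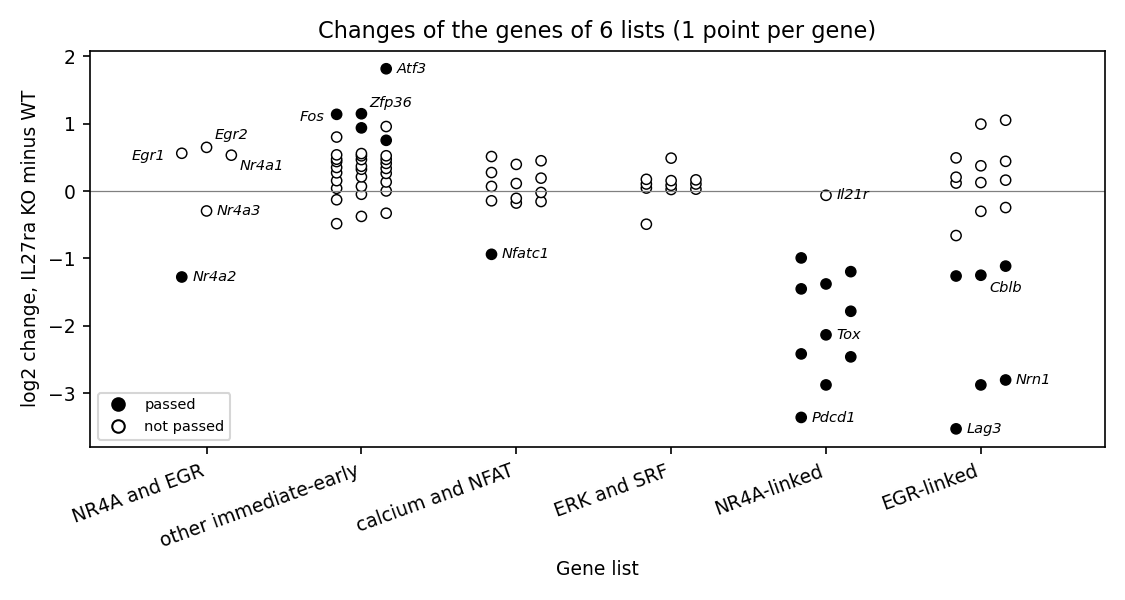
Change of each tested gene (log2(FPKM + 1), IL27ra KO minus WT; filled, limma adjusted p under 0.05) in 6 lists. Other immediate-early genes that pass lie above 0 (5 of 33) and NR4A-linked genes that pass lie below 0 (10 of 11), with Nr4a2 at -1.27 among the 6 chosen genes. Of all genes tested 3.13% were called higher and 1.11% lower.

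Within the groups, libraries with more Nr4a2 also had more RNA of several checkpoint genes, a pattern noticed after values were seen. With each group centred on its mean, log2 levels over the 9 libraries gave Pearson's r with Nr4a2 of 0.94 for Tnfrsf9, 0.92 for Pdcd1, 0.90 for both Havcr2 and Lag3, 0.84 for Ctla4 and 0.79 for Tox. Without the 2 libraries farthest in Nr4a2, WT replicates 2 and 4, these were 0.84, 0.95, 0.83, 0.75, 0.93 and 0.88. Some list genes that are not checkpoint genes followed as closely. Without those libraries Gadd45b, of the other immediate-early genes, went from 0.92 to 0.86 and Fasl, EGR-linked, from 0.82 to 0.81. Others followed less: Tigit, NR4A-linked, went from 0.71 to 0.33 and Crtam, EGR-linked, from 0.79 to 0.39. Over all 9 libraries the NR4A-linked genes Tox2 (-0.47), Ikzf2 (-0.12) and Cd244 (0.19) had low or negative r. The median r was 0.71 over the NR4A-linked genes and 0.64 over the CD8 T cell identity genes. It was 0.28 over the EGR-linked genes, 0.10 over the other immediate-early genes and -0.03 over all genes tested. The points share library, depth and T cell content, and Nr4a2 had an r of 0.66 with the CD8 T cell identity level and 0.20 with the macrophage level, so these values are descriptions.

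The library labelled WT replicate 2 held the most of Nr4a2, Pdcd1 and Tnfrsf9 (33.60, 157.21 and 98.66 FPKM), and WT replicate 4 the least of the WT libraries (12.77, 49.69 and 22.40 FPKM). Among the 6 genes, Nr4a1 went with Nr4a3 (r = 0.75) more than with Nr4a2 (-0.33), and Egr1 with Egr2 had an r of 0.27. Among the 5722 genes that averaged 5 FPKM or more, those most like Nr4a2 were Nup85 (0.991), 1110008P14Rik (0.977) and BC005624 (0.974), those most like Nr4a1 were Prkd3 (0.962), Ccdc97 (0.938) and Dhx9 (0.929), and those most like Nr4a3 were Acin1 (0.951), Cbll1 (0.942) and Sash3 (0.941). Egr1 was most like 2010111I01Rik (0.969), Ucp2 (0.934) and Casp1 (0.895), and Egr2 most like Pon2 (0.936), Abcc1 (0.860) and 1200011I18Rik (0.856). Each is the best match among many genes over 9 libraries and is a description only.

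**Figure D5:**
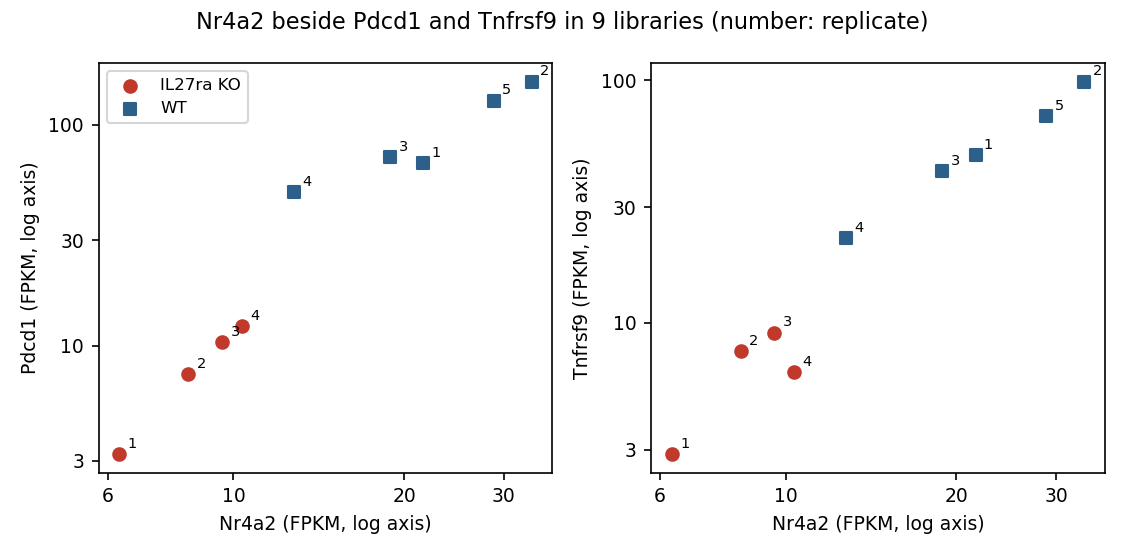
FPKM of Pdcd1 (left) and Tnfrsf9 (right) against Nr4a2 in each library, both axes on a log scale, circles for IL27ra KO and squares for WT, numbered by replicate. The IL27ra KO libraries lie at 6.29 to 10.35 FPKM of Nr4a2 and the WT libraries at 12.77 to 33.60 FPKM. Pdcd1 is higher where Nr4a2 is higher except between WT replicates 1 and 3. Tnfrsf9 is too, except that IL27ra KO replicate 4 (6.25 FPKM) lies below replicates 2 (7.62) and 3 (9.10).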

How the data were processed

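Bulk CD8+ T cells were lysed and libraries made with an adaptation of SMART-Seq 2, per the labels' protocols; the sources used here give neither the sequencing layout nor the strand setting. The deposited values are TMM-normalized FPKM from RSEM, per the labels, and the submitters' processing notes name TopHat, RSEM, DESeq and the build mm9 without versions. TMM holds most genes level, so a change in cell make-up moves all values, and PCR copies count as separate fragments. Depth was estimated from the spacing of low FPKM values among 2879 single-transcript genes. Of the 454 to 574 low values used per library, 66.7% to 69.4% lay within 0.1 of a whole multiple. The rule that picks the spacing was settled after first estimates were seen. As whole fragments were not recovered for most genes, no count test was run.

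The deposited FPKM were put on a log2(FPKM + 1) scale, genes averaging under 1 FPKM were dropped, and groups were compared as IL27ra KO minus WT with limma 3.58.1 in R 4.3.3 (trend, Benjamini-Hochberg over 10374 genes, threshold 0.05). In simulated data with 200 of 10374 genes changed by 1, 2 or 3 log2 units, 55.5%, 94.5% and 98.5% were recovered and 4.31%, 7.35% and 5.74% of calls were false. The changed genes had a WT mean log2 level of at least 2. Noise was drawn separately for each gene, without the shift in cell make-up seen here, so these rates hold for that setting only. Single values were compared by an exact permutation test over the 126 ways to divide 9 libraries into 4 and 5, in Python 3.11.15. Its two-sided p is the doubled one-sided p that scipy 1.17.1 uses. The design fixed in advance did not say which convention to use: the share of splits with an absolute difference as large was computed first, and the convention was changed after those results had been seen. Both are given among the alternatives.

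The 6 genes and the 16 gene lists were chosen with earlier results of these data known. The text names the 6 genes, up to 4 passing genes of a list by smallest p (the 2 largest changes where none passes), fixed markers and the 3 genes most like each member. Other list members, the NR4A shares, the Nr4a2 plot with Pdcd1 and Tnfrsf9 and the correlations were chosen after values were seen, as was the marking of TGACG, 1 of 5 motifs searched. The alternatives tried were a pseudocount of 0.1 or 5, a filter at 5 FPKM or none, scaling by quantiles, total, median or T cell identity, robust and weighted fits, a replicate block, a macrophage covariate and each library left out; IL27ra KO replicate 4 alone and the other permutation p were added after the data were seen. The promoter table matched Nr4a1, Nr4a2, Nr4a3 and Egr2, and the Egr2 windows are not shown.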

Additional observations from a re-analysis of the deposited data

How the results depend on the processing

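Nr4a2 stayed below 0 in all 22 other fits and passed in 16. It did not pass at the same total (-0.97), at the same T cell identity level (-0.61), with the replicate block (-1.18, adjusted p = 0.0653), with the macrophage covariate (-1.60), in IL27ra KO replicate 4 alone (-1.02) or without IL27ra KO replicate 1; in these 6 fits 0 members were called lower. With 1 library left out it ranged from -1.46 to -1.13, and 0 to 1 members were called lower. Scaling to T cell identity called 3 members higher: Nr4a1 (1.23), Egr1 (1.25) and Egr2 (1.24). Signs turned for Nr4a3 at the same total (0.0081), at T cell identity (0.35), with the macrophage covariate (0.53, adjusted p = 0.690) and in IL27ra KO replicate 4 alone (0.23), and with that covariate for Egr1 (-0.11) and Egr2 (-0.23). The cause was not tested.

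The main 440 genes called over all genes became 219 with the 5 FPKM filter, which tests fewer genes, 1255 at T cell identity, 974 with library weights, 273 with the replicate block, 4 with the macrophage covariate, 2 in IL27ra KO replicate 4 alone (fewer libraries) and 227 to 639 with 1 library left out. Libraries with the same replicate number did not deviate together (correlations of 0.00, -0.01, -0.07 and -0.15), and other combinations gave -0.07 to 0.13. The labels do not say whether the numbers pair samples, and these few correlations cannot settle it.

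The 6 pairs whose changes differed became 0 with a pseudocount of 0.1, 0 at T cell identity and 0 with any 1 library left out. Relative to T cell identity, quantile normalization let Egr1 (1.27) and Egr3 (0.86) pass (exact permutation, adjusted p = 0.0476). Egr3 is near 0, so its value here is mostly the T cell level difference (-0.69) with its sign turned and says little of Egr3 itself. With the two-sided p taken from absolute differences, 4 pairs passed, not 6, and 5 of 6 members relative to T cell identity, not 0: Nr4a1 (1.23), Nr4a2 (-0.58), Egr1 (1.25), Egr2 (1.34) and, with the same limit, Egr3 (0.91), each at adjusted p = 0.0476. The results relative to T cell identity therefore depend on a convention that was settled after seeing them.

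Depth limits Egr3 most, and at 4 against 5 libraries a change of 1 log2 unit can go undetected.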
